A study of Mus musculus with 8 samples.

Results

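The 7 genes followed here, of 20408 in the tables, belong to the MHC class II pathway and were measured in tumour endothelial cells (ECs): H2-Aa, H2-Ab1 and H2-Eb1, which encode class II chains, Cd74, H2-DMa, H2-DMb1 and Ciita. All 7 were found in the tables by their symbols. ECs were cells with at least 1 UMI (a counted transcript molecule) of Pecam1, which encodes the sorting marker CD31, and none of Ptprc, which encodes the leukocyte antigen CD45. This gate kept 6994 of 8204 deposited cells (85.3%), 570 to 1443 per library. The 8 libraries came from CD45- CD31+ cells sorted from breast tumours, 2 libraries in each of 4 groups. Spontaneous tumours arose in MMTV-PyMT mice, in which the mouse mammary tumour virus promoter drives the polyoma middle T oncogene, treated as 9-week-old females per the methods. Implanted tumours were grown from PyMT tumour cells, cultured for 2 days and placed in the mammary fat pad of female hosts aged 8 to 9 weeks. Tumours of each model were taken 3 h after an intratumoural dose of PBS or cGAMP, an agonist of the DNA-sensing adaptor STING. The labels give all animals as adult C57BL/6, whereas the methods name the FVB strain for both models, so the strain, and with it the class II haplotype, is not settled. The methods name 2 mice per group, and nothing states that each library is 1 mouse, so p-values measure the spread between these libraries.

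MHC class II molecules are heterodimers that display peptides from the endosomal system to CD4+ T cells. H2-Aa and H2-Ab1 encode the α and β chains of the I-A molecule and H2-Eb1 encodes the β chain of I-E. Cd74 is the invariant chain, which guides new class II molecules to the endosome and blocks their groove, and the H2-DM heterodimer (H2-DMa and H2-DMb1) exchanges its remnant for peptide. Ciita is the co-activator that switches the pathway on, and interferon-γ is its best known inducer outside professional antigen-presenting cells. ECs are not professional antigen-presenting cells, but they can carry class II under interferon-γ.

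Of the members, 5 lie within a stretch of 197 kb in the MHC on chromosome 17 of GRCm38 (mm10), from 34119541 to 34316674. H2-DMa spans 34119541 to 34139101, H2-DMb1 34153072 to 34160230, H2-Ab1 34257689 to 34269419, H2-Eb1 34305867 to 34316674 and, on the reverse strand, H2-Aa 34282744 to 34287823. Ciita lies on chromosome 16, from 10480059 to 10528418.

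CIITA does not bind DNA itself but docks on factors that sit on the conserved X and Y boxes of class II promoters. The boxes are shown because the members' levels moved together across libraries. RefSeq promoter entries (GRCm38.p6) were held for 4 of the 7 members. The 250 bases before each start were searched, on the strand of the gene for members and on both strands for the rates over all promoters. The sequences sought were ATTGG, the core of the Y box, and GCAAC, found in X boxes, followed by ATTGG after 25 to 30 bases. These spacings were set after the promoters were seen. The pair stood in H2-Aa and H2-Eb1, and in 78 of 32851 mouse promoters (0.237%). ATTGG alone was in 33.8% of promoters on either strand, and on the gene strand in H2-DMb1 and 1 of the 2 H2-DMa entries. The 2 stretches run 5′ to 3′ on the strand of the gene, with GCAAC and then ATTGG in capitals. They lie at chr17:34287854-34287923 for H2-Aa (reverse strand), where GCAAC begins 81 and ATTGG 48 bases before the start, and at chr17:34305767-34305836 for H2-Eb1 (forward strand), where they begin 91 and 59 bases before it.
H2-Aa: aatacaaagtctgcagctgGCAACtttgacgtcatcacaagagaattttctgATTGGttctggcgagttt
H2-Eb1: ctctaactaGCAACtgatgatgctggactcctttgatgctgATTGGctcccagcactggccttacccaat
The letters match the core of a box and nothing about binding was measured.

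The gated cells carried the markers of ECs, with all 8 listed endothelial genes detected in every library at a summed 4951 to 5953 CPM (UMIs of a gene per 1000000 UMIs of a cell, averaged over cells). Replicate 1 of implanted cGAMP stood apart, with a median of 3038 UMIs per gated cell against 9474.5 to 14453.5 in the other libraries, and 38.1% of its gated cells were under 2000 UMIs. Summed macrophage and dendritic cell markers were also highest in it, at 191 CPM, against 46.2 CPM in its replicate and 10.4 to 38.2 CPM elsewhere. The 4 B cell markers summed to 0 to 0.608 CPM. Libraries shared 7 cell barcodes, summed over 28 pairs of libraries.

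The 3 chain genes were lowest in spontaneous PBS tumours, and both libraries of each of the other 3 groups lay above them. H2-Aa, the I-A α chain, was at 3.12 and 1.43 CPM in spontaneous PBS, 42.1 and 53.7 CPM in spontaneous cGAMP, 91.4 and 39.7 CPM in implanted PBS and 109 and 67.8 CPM in implanted cGAMP. H2-Ab1, the I-A β chain, was at 4.82 and 8.56, 77.8 and 71.6, 179 and 73.4, and 208 and 146 CPM in the same order. For both genes, the spontaneous PBS libraries lay below all 6 others, and the implanted PBS libraries lay far apart and overlapped both cGAMP groups. H2-Eb1, the I-E β chain, was at 0.0610 and 0.478 CPM, 1.98 and 2.64 CPM, 4.62 and 1.45 CPM, and 2.87 and 3.14 CPM. H2-Eb1 never reached the 5 CPM asked of tested genes, so it has no call.

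The invariant chain, the peptide exchange genes and the co-activator were also lowest in spontaneous PBS. Cd74 was at 13.997 and 19.6 CPM in spontaneous PBS, 202 and 224 CPM in spontaneous cGAMP, 569 and 249 CPM in implanted PBS and 653 and 473 CPM in implanted cGAMP. H2-DMa was at 1.94 and 1.002, 13.7 and 17.6, 40.5 and 16.4, and 35.1 and 20.7 CPM in that order. H2-DMb1 was at 1.03 and 0.980, 9.82 and 16.1, 28.8 and 11.7, and 26.0 and 27.1 CPM. In each of these genes the 2 spontaneous PBS libraries were lowest, and replicate 2 of implanted PBS was below both implanted cGAMP libraries. Ciita, the co-activator, was at 0.722 and 0.703 CPM in spontaneous PBS, 8.90 and 8.26 CPM in spontaneous cGAMP, 20.0 and 7.36 CPM in implanted PBS and 11.8 and 9.68 CPM in implanted cGAMP. Its highest library was replicate 1 of implanted PBS, not a cGAMP library.

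**Figure D1:**
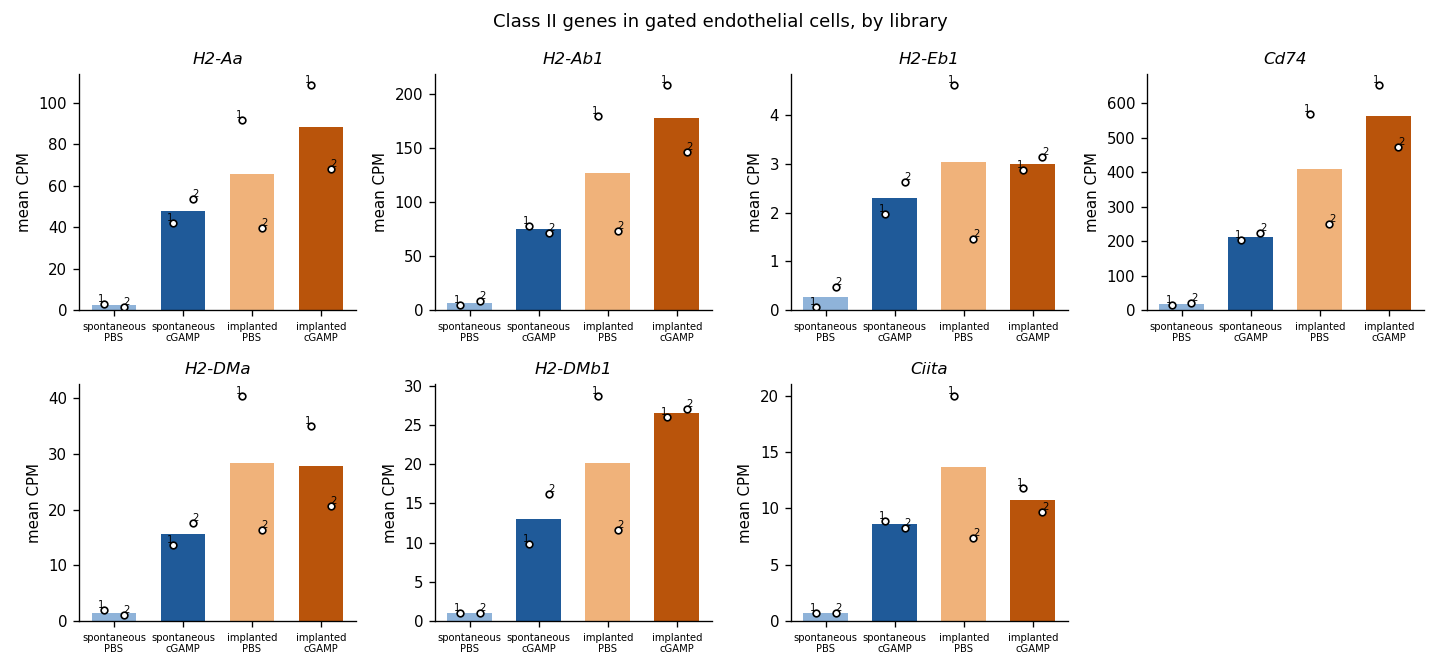
Mean CPM over gated ECs (vertical axis, linear from 0, a separate scale for each gene) of the 7 class II genes in the 4 groups; bars are means of 2 libraries and points are the libraries, numbered 1 and 2. Spontaneous PBS is lowest for all 7 genes, and replicate 1 of implanted PBS stands 2.28 to 2.72 times above replicate 2 for the 6 genes tested.

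The first comparison asked which genes responded to cGAMP in spontaneous tumours. All 6 members tested rose, against 12.7% of 10425 genes tested that were called in either direction (limma on log2 of CPM + 1, Benjamini-Hochberg adjusted p over all genes under 0.05). H2-Aa rose by 3.94 ± 0.381 (log2 ± SE, adjusted p = 0.000133 in limma), and Cd74 rose by 3.60 ± 0.321 (adjusted p = 7.08e-05). H2-Ab1 rose by 3.34 ± 0.366 (adjusted p = 0.000333), H2-DMa by 2.77 ± 0.393 (adjusted p = 0.00186) and H2-DMb1 by 2.77 ± 0.360 (adjusted p = 0.00103). Ciita rose by 2.48 ± 0.376 (adjusted p = 0.00275). The median over the 6 members was 3.05, beside −0.10 over all genes tested. For H2-Eb1, the fit with no filter on low values gave a log2 change of 1.39 ± 0.414 and an adjusted p of 0.124 in limma. Both cGAMP libraries lay above both PBS libraries for all 7 members. The share of all genes separated in this way was not counted in any comparison, so such counts only describe the levels. All 6 calls were also made under each of the 18 alternative settings, among them cells with no UMI of any leukocyte marker.

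In implanted tumours, none of the 6 members tested was called between cGAMP and PBS, while 24.9% of genes tested were called. At an unadjusted p under 0.05 the limma count was also 0. The count of adjusted calls stayed at 0 under every alternative that kept all 8 libraries. The log2 differences were 0.56 ± 0.321 for Cd74, 0.60 ± 0.366 for H2-Ab1, 0.50 ± 0.381 for H2-Aa and 0.51 ± 0.360 for H2-DMb1. They were 0.06 ± 0.393 for H2-DMa and −0.18 ± 0.376 for Ciita, and adjusted p ranged from 0.240 to 0.934 in limma. For 0 of the 7 members did both cGAMP libraries lie above both PBS libraries. The implanted PBS libraries themselves differed, with all 6 tested members at least 2 times higher in replicate 1 than in replicate 2 on the CPM + 1 scale (2.27 to 2.51 times), which held for 0.633% of all genes tested. Without replicate 1 of implanted PBS, H2-Ab1 (1.24), Cd74 (1.15) and H2-DMb1 (1.12 on the log2 scale) were called higher after cGAMP, and without replicate 2 the 6 log2 differences were all below 0 (−0.04 to −0.85).

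The response of the 2 models was compared directly as the difference of their log2 changes, implanted minus spontaneous. Of the 6 members, 2 were called, both with the smaller rise in implanted tumours, against 0.624% of genes tested. Cd74 differed by −3.04 ± 0.454 (adjusted p = 0.0287 in limma) and H2-Aa by −3.44 ± 0.539 (adjusted p = 0.0298). The other 4 members differed by −2.74 (H2-Ab1), −2.71 (H2-DMa), −2.67 (Ciita) and −2.26 (H2-DMb1), with adjusted p of 0.0558 to 0.0911. The count fell to 0 with no filter on low values and without any 1 of the 4 spontaneous libraries, and it was 6 with UMIs summed over cells or without replicate 2 of implanted PBS, and 4 without replicate 1 of implanted cGAMP.

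Under PBS, the 6 members tested were all higher in implanted than in spontaneous tumours, against 7.84% of genes called in either direction. Cd74 was higher by 4.42 ± 0.321 (log2 ± SE, adjusted p = 0.000153 in limma), H2-Aa by 4.28 ± 0.381 and H2-Ab1 by 3.96 ± 0.366. H2-DMa was higher by 3.47 ± 0.393, H2-DMb1 by 3.28 ± 0.360 and Ciita by 2.95 ± 0.376, with a highest adjusted p of 0.00194 in limma, for Ciita. All 6 calls were made under each of the 18 alternative settings, including the one without replicate 1 of implanted PBS. This comparison and the cGAMP response of spontaneous tumours share the spontaneous PBS libraries, so they are not independent. After cGAMP, both implanted libraries lay above both spontaneous ones for all 7 members. The share of all genes separated in this way was not counted, so this only describes the levels. Of the 6 members tested, only Cd74 was called, by 1.38 ± 0.321 (adjusted p = 0.0223 in limma), against 14.4% of genes. The other 5 were higher by 0.29 (Ciita) to 1.21 (H2-Ab1), with adjusted p of 0.0549 to 0.652. The Cd74 call was lost among cells with no UMI of a leukocyte marker (log2 1.35, adjusted p = 0.0661 in limma), and without replicate 1 of implanted cGAMP (1.15, adjusted p = 0.0810). It was also lost without replicate 1 (1.31) or replicate 2 (1.46) of spontaneous cGAMP and with no filter on low values (1.38), with adjusted p of 0.0934 to 0.118 in limma.

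**Figure D2:**
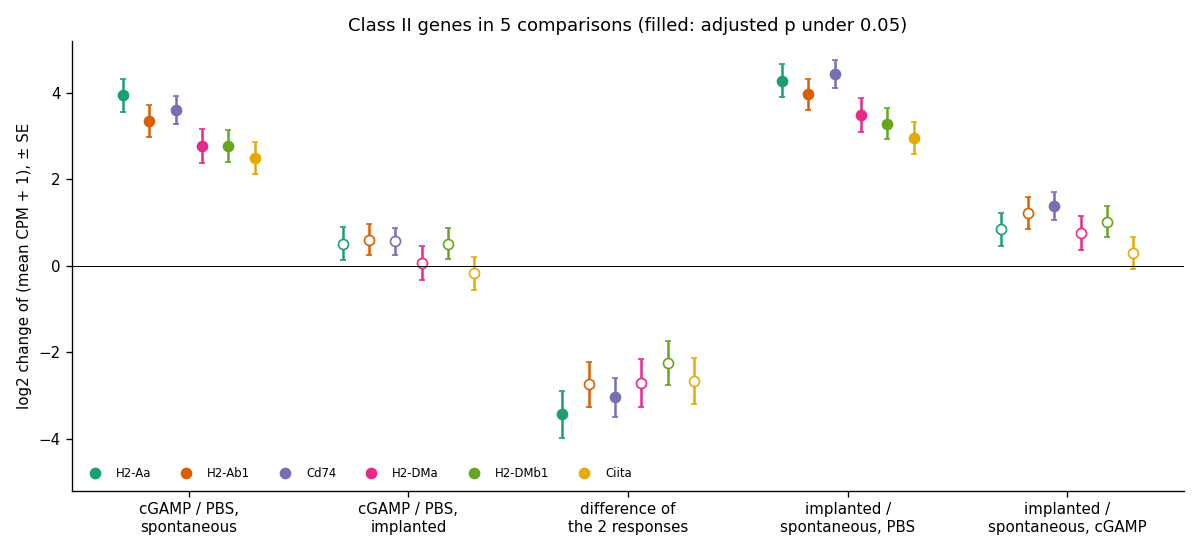
Log2 changes ± SE (vertical axis) of the 6 members tested in 5 comparisons, filled where the adjusted p is under 0.05. The points stand between 2.48 and 3.94 for cGAMP in spontaneous tumours, between −0.18 and 0.60 for cGAMP in implanted tumours, and between 2.95 and 4.42 for implanted against spontaneous tumours under PBS.

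To count cells with a detected transcript at 1 depth, each cell with at least 2000 UMIs was thinned to 2000. This left out 969 gated cells, 550 of them in replicate 1 of implanted cGAMP. A higher level per cell also raises the share of cells with a UMI at this depth. Shares and UMIs per positive cell therefore cannot tell more cells from more transcript per cell. At that depth, cells with a Cd74 UMI made up 1.52% and 1.27% in spontaneous PBS, 15.8% and 19.8% in spontaneous cGAMP, 25.3% and 13.3% in implanted PBS and 38.0% and 33.3% in implanted cGAMP. Unlike its mean level, the share of ECs with a detected Cd74 UMI was higher in both implanted cGAMP libraries than in both implanted PBS libraries. The mean number of Cd74 UMIs per positive cell was 4.76 and 3.82 in implanted PBS and 3.26 and 3.02 in implanted cGAMP. Among cells with a detected Cd74 UMI, the mean count was thus lower in both implanted cGAMP libraries than in both implanted PBS libraries. In spontaneous cGAMP the number was 2.64 and 2.25. The 4 pan-leukocyte markers summed to 85.2 and 24.2 CPM in implanted cGAMP and to 5.91 to 10.3 CPM in the other libraries. The part of leukocyte RNA in the Cd74 shares was not tested.

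The share with an H2-Ab1 UMI was 0.350% and 0.904%, 8.93% and 9.89%, 17.2% and 9.31%, and 22.1% and 17.3% in the same order. Here the implanted groups were separated by less than 0.1 percentage points. The share with an H2-Aa UMI was 0.701% and 0.181%, 5.96% and 7.02%, 11.5% and 5.10%, and 13.1% and 9.21%, with implanted groups that overlapped. H2-DMa was in 1.57% to 6.84% and H2-DMb1 in 1.41% to 5.49% of cells in the 6 libraries outside spontaneous PBS, and each in at most 0.350% of cells in spontaneous PBS. Cells with a Ciita UMI made up 0% and 0.362% in spontaneous PBS and 1.41% to 4.08% in the other 6 libraries, where the implanted groups overlapped. An exact permutation test of 2 against 2 libraries cannot give a p under 0.33, so no test of the shares is given. Their Wilson 95% intervals cover counting error only. Without thinning, the Cd74 shares were 4.80% and 4.50%, 30.9% and 35.8%, 36.1% and 21.5%, and 51.8% and 51.2%.

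The I-A chains and Cd74 were then scored in the same cell. Co-positive cells, with at least 1 UMI each of H2-Aa, H2-Ab1 and Cd74 at 2000 UMIs, numbered 0 of 856 and 0 of 553 in spontaneous PBS, which allows shares of up to 0.350% and 0.542% (3 counts of the total) at this depth only. Without thinning, 0.522% of 958 and 0.333% of 600 cells of these libraries were co-positive. In spontaneous cGAMP they were 14 of 638 (2.19%, Wilson 1.31% to 3.65%) and 21 of 627 (3.35%, 2.20% to 5.07%). In implanted PBS they were 65 of 906 (7.17%, 5.67% to 9.04%) and 32 of 1020 (3.14%, 2.23% to 4.40%). In implanted cGAMP they were 62 of 893 (6.94%, 5.45% to 8.80%) and 26 of 532 (4.89%, 3.36% to 7.06%). At this depth co-positive cells were thus counted in the 6 libraries with raised levels and in neither spontaneous PBS library, where they appeared without thinning, and the implanted groups overlapped. Asking also for H2-Eb1 left 0% to 0.336% per library.

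**Figure D3:**
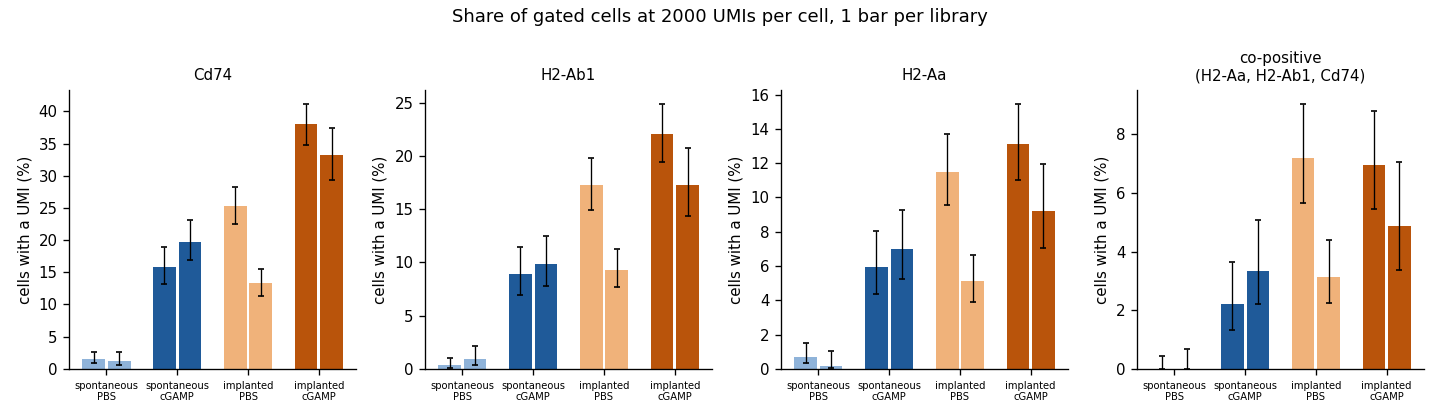
Percentage of gated ECs with a UMI of Cd74, H2-Ab1 or H2-Aa, and of co-positive ECs (vertical axes, linear from 0), at 2000 UMIs per cell, 1 bar per library (replicate 1 on the left) with Wilson 95% intervals. Cd74 is in 13.3% and 25.3% of cells in implanted PBS and in 33.3% and 38.0% in implanted cGAMP, whereas the co-positive shares of these groups overlap.

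Members were found in the same cells. Over the 6 libraries outside spontaneous PBS, 34.7% to 58.5% of Cd74-positive cells held an H2-Ab1 UMI, against 2.83% to 8.48% of Cd74-negative cells at the same depth. Of H2-Aa-positive cells, 47.4% to 67.3% held H2-Ab1, against 6.20% to 16.2% of the rest. Ciita-positive cells, 9 to 37 per library, held Cd74 in 33.3% to 81.1%, against 12.6% to 37.2% of Ciita-negative cells. The pairing was thus seen between the 2 chains of I-A, and between the co-activator and the invariant chain it switches on. The UMIs were unevenly spread, and at most 7.06% of cells held 10 or more UMIs of the 7 members in any library.

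The co-positive cells were compared with the other gated cells for signs of leukocytes. A UMI of Lyz2 or a C1q gene, which mark macrophages, was in 0% to 4.84% of co-positive cells and in 0.405% to 6.26% of the other cells, over the 6 libraries with co-positive cells. There were 5 such co-positive cells in 2 libraries, and in replicate 1 of implanted PBS their share was above that of the other cells (3.08% against 1.19%). A UMI of any listed leukocyte marker was more frequent in co-positive than in other cells in replicate 1 of spontaneous cGAMP (14.3% against 8.33%) and replicate 2 of implanted PBS (6.25% against 2.63%). It was less frequent in the other 4 libraries, at 3.08% to 17.7% against 4.64% to 18.2%. Cdh5, the endothelial VE-cadherin, was detected in 64.3% to 88.5% of co-positive cells and in 83.6% to 86.3% of the others. Its share was higher in co-positive cells only in replicate 2 of implanted PBS (84.4% against 83.6%) and of implanted cGAMP (88.5% against 83.6%). The widest gap was in replicate 1 of spontaneous cGAMP, at 64.3% of 14 co-positive cells against 86.1% of the others. In that library leukocyte UMIs were also more frequent in co-positive cells. Among sorted cells with no Pecam1 or Ptprc UMI and at least 3 mural markers, Cd74 was in 1 of 28 cells in spontaneous PBS and in 3 of 55 (5.45%) in spontaneous cGAMP, and none was co-positive. The spontaneous cGAMP share in ECs, 17.8% over both libraries, was above this, with median depths of 7245 to 10608 UMIs in mural-marker cells and 12554 to 14315.5 in ECs. In the implanted groups only 2 mural-marker cells reached 2000 UMIs (1 with Cd74), so background from free RNA could not be gauged this way there. The mural-marker cells also held H2-Eb1 UMIs at all depths, 4 in 29 cells of spontaneous PBS and 7 in 62 cells of spontaneous cGAMP, against 8 in 1558 and 54 in 1338 ECs. They therefore give no class II-free background for that gene.

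Vessel types were scored from marker lists, as ranges of a per-cell score rather than as cell types. A cell was placed in the range of its highest list when the mean standardised score was at least 0.5 and at least 3 markers were detected. This placed 4349 of the 6994 cells, and 750 cells (10.7%) lay within 0.1 of the limit. No member is on these lists, but several markers moved with cGAMP, so sizes of ranges are not compared. In limma, the venous marker Vwf fell by 1.37 in spontaneous and 2.25 in implanted tumours on the log2 scale, and the proliferation marker Mki67 fell by 2.40 and 3.63. The venous list also held Ackr1 and Selp. For implanted Lewis lung carcinoma, at a later time, the paper reports ACKR1 among the genes raised by cGAMP and a larger SELP+ EC population. Whether the venous score follows vessel type or the state of a cell was not tested. Ranges held some genes of other lists, with a median of at most 4 AQP7-type capillary markers of 8 in the tip-like and proliferative ranges.

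Venous-range cells held more class II transcript than arterial-range cells in the 6 libraries outside spontaneous PBS. Cd74 was at 527 and 312 CPM in venous-range cells and 86.1 and 41.9 CPM in arterial-range cells of spontaneous cGAMP tumours. It was at 569 and 278 CPM against 142 and 60.6 CPM in implanted PBS, and at 826 and 867 CPM against 234 and 132 CPM in implanted cGAMP. Venous exceeded arterial in 6 of these 6 libraries, by 3.53 to 7.46 times. Summed over the 7 members, the ratio was 3.40 to 7.17, and the venous range was the highest of the 6 ranges in 5 of the 6 libraries. In replicate 2 of implanted PBS the proliferative range was higher, with a sum of 469 CPM against 451 CPM. Cells in no range exceeded the venous range in both implanted PBS libraries, at 1502 and 616 CPM against 1007 and 451 CPM. In the cGAMP groups they were below it. The arterial range was the lowest of the 6 ranges in 4 of the 6 libraries. In replicate 1 of spontaneous cGAMP the tip-like range was lower (99.7 against 142 CPM). In replicate 2 the AQP7-type capillary range was lower (105 against 113 CPM). At a stricter score of at least 1, chosen after the values were seen, venous Cd74 stayed above arterial in all 6 libraries, by 1.96 to 10.2 times. The lowest ratio was in replicate 2 of implanted PBS, where venous Cd74 was 137 CPM against 69.8 CPM in arterial-range cells. Venous Cd74 in replicate 1 of spontaneous cGAMP was 316 CPM at this score. In implanted cGAMP it was 605 and 717 CPM, below the 826 and 867 CPM at a score of at least 0.5.

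In spontaneous PBS the lymphatic range had the highest class II level in both libraries. Its 50 cells, 24 and 26 per library, had Cd74 at 208 and 138 CPM, while the other 5 ranges were at 0 to 22.2 CPM except tip-like cells of replicate 2 at 76.1 CPM. H2-Ab1 was at 71.3 and 47.4 CPM in lymphatic-range cells, while H2-Aa was at 3.14 CPM on average and no cell was co-positive. Lymphatic-range cells of spontaneous cGAMP tumours had Cd74 at 204 and 71.7 CPM, which overlapped their PBS values. At a score of at least 1, replicate 2 of spontaneous PBS fell to 86.2 CPM over 24 cells and replicate 1 of spontaneous cGAMP to 115 CPM over 29 cells, while replicate 1 of spontaneous PBS stayed at 208 CPM. In implanted tumours their Cd74 was 365 and 71.3 CPM after PBS and 525 and 515 CPM after cGAMP. These values rest on 19 to 106 cells per library, and those of implanted cGAMP replicate 1 had a median of 3265 UMIs per cell.

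**Figure D4:**
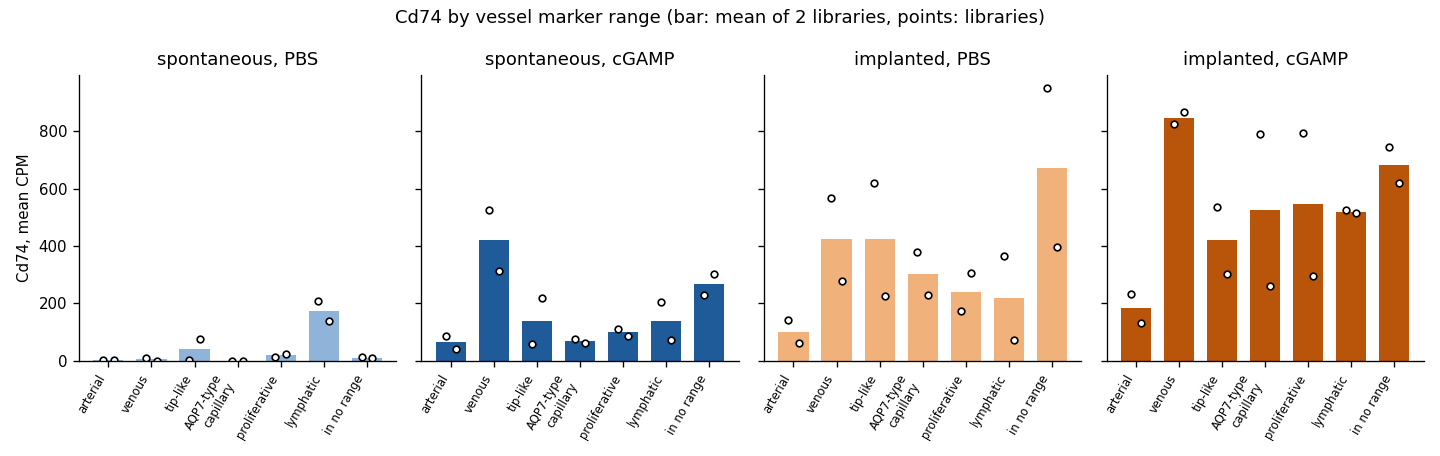
Mean CPM of Cd74 (vertical axis, linear from 0, 1 scale for all panels) by vessel marker range, 1 panel per group; bars are means of 2 libraries and points are libraries, replicate 1 on the left. The lymphatic range is highest in spontaneous PBS (173 CPM on average), and the venous range is above the arterial range in the other 3 groups.

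Other genes of the pathway were taken from a list of 32, of which 27 were in the tables and 21 passed the filter on low values. In spontaneous tumours, 4 of the 21 rose with cGAMP and 0 fell, against 12.7% of all genes tested called in either direction. Those described here were the interferon-responsive factor Irf1 (0.96 ± 0.146), the class II peptide exchange gene H2-DMb2 (2.03 ± 0.444) and the endosomal protease Ctsb (0.41 ± 0.0959, log2 ± SE). H2-DMb2 was at 0.0414 and 0 CPM in spontaneous PBS and at 3.27 and 3.05 CPM in spontaneous cGAMP. It reached the 5 CPM of the filter only in replicate 1 of implanted PBS (9.18 CPM) and of implanted cGAMP (5.57 CPM). The Irf1 call was made in all 18 alternatives. The H2-DMb2 call was lost in 6 of 16, among them cells with no UMI of a leukocyte marker (adjusted p = 0.0756 in limma), and the Ctsb call in 5 of 18. Both were lost without any 1 of the 4 spontaneous libraries, with adjusted p of 0.0577 to 0.163 in limma.

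In implanted tumours, 6 of the 21 rose and 1 fell, against 24.9% of all genes tested. Irf1 rose by 0.54 ± 0.146, the kinase Jak2 by 0.41 ± 0.115, Ctsb by 0.43 ± 0.0959 and the costimulatory receptor Cd40 by 0.81 ± 0.213. The protease gene Ctss also rose, and the interferon-γ receptor chain Ifngr1 fell by 0.37 on the log2 scale. Among cells with no UMI of a leukocyte marker, Irf1 (0.50), Jak2 (0.42), Cd40 (0.68) and Ifngr1 (−0.30) were no longer called, with adjusted p of 0.0512 to 0.0770 in limma, while Ctsb and Ctss were. Without replicate 2 of implanted PBS, the calls of Irf1 (0.31), Jak2 (0.30), Cd40 (0.63), Ctsb (0.41) and Ifngr1 (−0.35) were lost, with adjusted p of 0.0687 to 0.196. Those of Irf1 (0.44), Jak2 (0.31) and Cd40 (0.64) were also lost without replicate 1 of implanted cGAMP, with adjusted p of 0.0941 to 0.115 in limma. The median over the 21 genes was 0.07 in spontaneous and 0.01 in implanted tumours, beside −0.10 over all genes tested in each. H2-DMb2 is a close copy of H2-DMb1, so reads may be split between the pair.

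Ctss, the cathepsin that trims the invariant chain, was highest in both implanted cGAMP libraries. It was at 2.32 and 6.32 CPM in spontaneous PBS, 11.0 and 8.16 CPM in spontaneous cGAMP, 2.76 and 1.41 CPM in implanted PBS and 49.7 and 49.3 CPM in implanted cGAMP. It rose with cGAMP in implanted tumours by 4.07 ± 0.359 (log2, adjusted p = 7.52e-05 in limma). It was the 1 listed gene called in the difference of the responses (0.624% of all genes tested), at 2.98 ± 0.508 (adjusted p = 0.0408), with the larger rise in implanted tumours, a direction opposite to that of Cd74 and H2-Aa. Ctss is also a leukocyte gene, and the 4 pan-leukocyte markers summed to 85.2 and 24.2 CPM in implanted cGAMP and to 5.91 to 10.3 CPM in the other libraries. Among cells with no UMI of a leukocyte marker its rise in implanted tumours was 3.57 and still called, and the difference of responses was 1.29 with an adjusted p of 0.375 in limma. The call of the difference was lost in 11 of the 18 alternatives, over which adjusted p ranged from 0.0244 to 0.375. The part of leukocyte RNA in the rest was not tested.

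Between the models under PBS, 4 of the 21 listed genes were higher in implanted tumours and 1 was lower, against 7.84% of all genes tested. Irf1 (0.84 ± 0.146), Jak2 (0.44 ± 0.115) and H2-DMb2 (2.76 ± 0.444) were higher, and Creb1, a factor that binds class II promoters, was lower, by a log2 difference of −0.50 ± 0.111. H2-DMb2 passed the filter only through replicate 1 of implanted PBS and of implanted cGAMP, the model where it was high. Its call is therefore not used as support, and it was untested without either library. The Jak2 call was lost in 11, that of Creb1 in 7 and that of Irf1 in 3 of 18 alternatives. Jak2 (adjusted p = 0.0666 to 0.284 in limma) and Creb1 (0.0707 to 0.182) were lost without any 1 of the 4 PBS libraries, and Jak2 also without either spontaneous cGAMP library (0.0829 and 0.0831). Irf1 was lost without either spontaneous PBS library (0.0514 and 0.0560). The X box factors Rfx5, Rfxap and Rfxank and the Y box factors Nfya, Nfyb and Nfyc were tested in all 5 comparisons and none was called. Rfx5 was at 4.66 to 9.42 CPM over the 8 libraries, highest in replicate 1 of implanted PBS. After cGAMP, Ctss (2.27), Cd40 (0.80) and Jak2 (0.68) were higher in implanted tumours, and Creb1 (−0.39) and Ifngr1 (−0.53) were lower, against 14.4% of all genes tested. Without replicate 2 of spontaneous cGAMP none of the 5 was called (adjusted p of 0.0642 to 0.188 in limma). The Creb1 call was lost without any 1 of 7 libraries, all but replicate 2 of implanted cGAMP (0.0596 to 0.222), and the Cd40 call also without replicate 1 of either cGAMP group (0.117 and 0.132). The costimulatory ligands Cd80 and Cd86 did not pass the filter, with Cd80 at 0 to 1.17 CPM and Cd86 at 0 to 2.61 CPM, each highest in replicate 1 of implanted cGAMP.

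**Figure D5:**
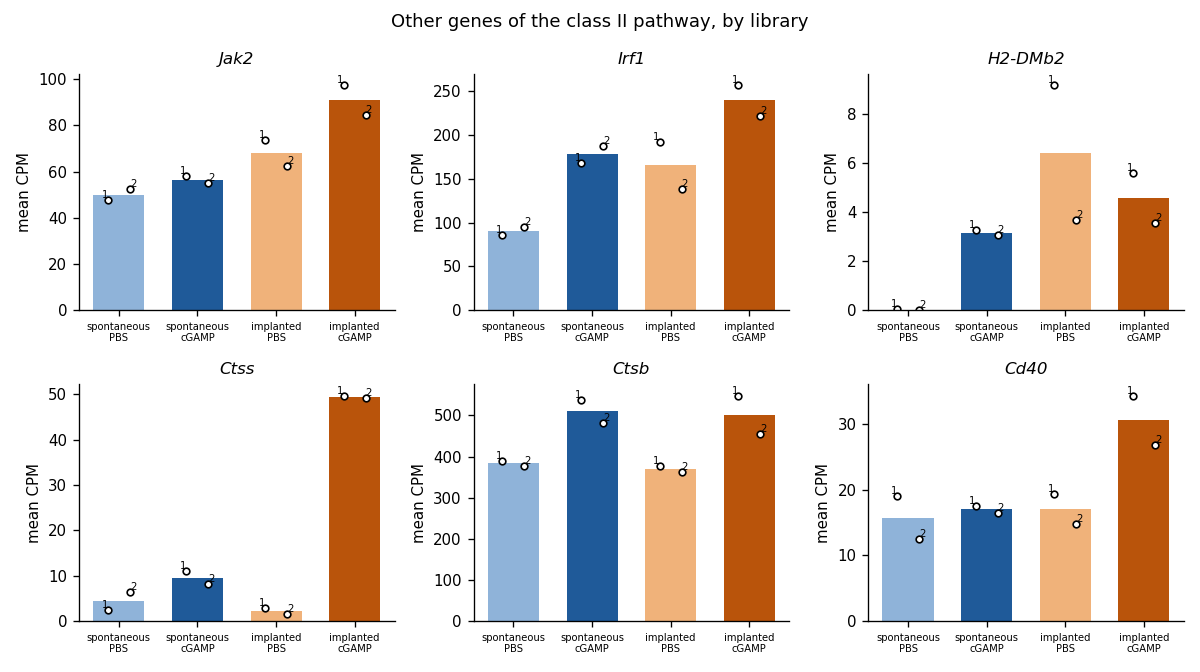
Mean CPM over gated ECs (vertical axis, linear from 0, a separate scale for each gene) of 6 other pathway genes; bars are means of 2 libraries and points are the libraries, numbered 1 and 2. Ctss is at 49.7 and 49.3 CPM in implanted cGAMP and at 1.41 to 11.0 CPM in the other 6 libraries, while Irf1 is lowest in spontaneous PBS.

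The genes whose library pattern was most like that of the members were found by correlation over the 8 libraries with the mean standardised log2 level of the 6 members tested. The 10 closest were Wars (Pearson r = 0.994), Gbp2 (0.985), Serpina3f (0.984), Ptpn18 (0.984), Iigp1 (0.983), H2-DMb2 (0.980), Gbp8 (0.980), Serpina3g (0.978), Cxcl9 (0.973) and Gbp5 (0.968). Most are known interferon-inducible genes, among them the guanylate-binding proteins Gbp2, Gbp5 and Gbp8 and the chemokine Cxcl9. Gbp2 was at 49.0 and 40.2 CPM in spontaneous PBS, 555 and 548 CPM in spontaneous cGAMP, 730 and 336 CPM in implanted PBS and 1061 and 772 CPM in implanted cGAMP. Like the members, it was far apart between the implanted PBS libraries, with the higher value in replicate 1. The points of these correlations are 8 libraries in 4 groups, so groups carry them, and they are given as a description.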

How the data were processed

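Endothelial cells sorted as live, CD45- and CD31+ from breast tumours were profiled by 10x 3′ v3 single-cell RNA-seq in 8 libraries. The authors deposited 1 matrix per library of natural log values, ln(1 + UMIs × 10000 / total UMIs of the cell). Their processing notes name Cell Ranger 3.0.0, Seurat 3.1.1 and mm10, and the methods remove cells with under 500 genes or over 10% mitochondrial UMIs. No doublet caller was run here, and the choice of the deposited cells is not settled by the sources used here. UMIs were worked back from the deposited values and were whole within 0.01 for 100% of values. Library totals were 7863535 to 16506086 UMIs.

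Each gene was averaged as CPM over gated cells of a library. The 10425 genes that reached 5 CPM in 2 or more libraries were tested on log2(CPM + 1) with limma 3.58.1 (trended variance, R 4.3.3) in 1 fit of all 8 libraries, with Benjamini-Hochberg adjustment per comparison. Fold changes on this scale understate those of low genes. Shares were counted at 2000 UMIs per cell. Intervals and limits for a count of 0 cover counting error only. The limma fit was tested on simulated libraries, and the other steps were not. Named genes were the 7 members, the pathway genes called and the 10 genes most alike. The values of 1 pathway gene, included in the counts, are not reported here. The members and lists were chosen with earlier results of these data known. Alternatives were another scaling, filter, pseudocount, gate or depth, summed UMIs, a replicate block and leaving out each library. Promoter sequences and gene positions came from RefSeq (GRCm38.p6) and GENCODE (GRCm38).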

Additional observations from a re-analysis of the deposited data

Results flagged for a closer look

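The response to cGAMP differed between the models for 3 of the genes described, by the limma test of the difference itself (implanted minus spontaneous, log2 scale). Cd74 differed by −3.04 ± 0.454 (SE, adjusted p = 0.0287 in limma), and H2-Aa differed by −3.44 ± 0.539 (adjusted p = 0.0298). Both cGAMP libraries lay above both PBS libraries for these genes in spontaneous tumours and not in implanted tumours. Ctss differed in the opposite direction, by 2.98 ± 0.508 (adjusted p = 0.0408 in limma). For Cd74 and H2-Aa, the calls were lost without any 1 of the 4 spontaneous libraries and with no filter on low values. For Ctss the difference was 1.29 among cells with no UMI of a leukocyte marker, with an adjusted p of 0.375 in limma.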

How the results depend on the processing

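For the response in spontaneous tumours and for the models under PBS, the 6 members tested were called in all 18 alternatives. In the difference of responses (2 members called), the count was 0 with no filter on low values, 1 with a pseudocount of 5 CPM, 6 with summed UMIs, 5 with cells of at least 2000 UMIs and 4 with cells holding a Cdh5 UMI. It was 0 to 6 when 1 library was left out. Between the models after cGAMP (1 called), it was 2 with median-of-ratios scaling, 0 with no filter, 2 with a pseudocount of 5 CPM, 3 with summed UMIs, 2 with at least 2000 UMIs, 0 with no leukocyte UMI, 2 with a Cdh5 UMI, and 0 to 3 with 1 library left out. For the response in implanted tumours (0 called) it was 0 to 3 with 1 library left out. There, H2-DMa turned to −0.30 with summed UMIs, −0.0598 with at least 2000 UMIs, −0.0459 with no leukocyte UMI and −0.0474 with a Cdh5 UMI. With 1 library left out, log2 differences ranged from −0.090 to 1.09 (H2-Aa), −0.038 to 1.24 (H2-Ab1), −0.036 to 1.15 (Cd74), −0.57 to 0.68 (H2-DMa), −0.11 to 1.12 (H2-DMb1) and −0.85 to 0.48 (Ciita). The causes were not tested. A lone library left in a group is assumed to vary like the other groups.

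Co-positive shares moved with depth. Without thinning they were 0.428% and 13.3% in spontaneous tumours (PBS, then cGAMP) and 15.3% and 18.8% in implanted tumours. In the same order, at 4000 UMIs they were 0.296%, 5.97%, 10.3% and 11.1%. At 1000 UMIs they were 1.36% in spontaneous and 2.38% in implanted cGAMP. With H2-Eb1 added they were 0%, 0.166% and 0.168% in the last 3 groups. With 1 library left out they were 0%, 2.19% to 3.35%, 3.14% to 7.17% and 4.89% to 6.94%.

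Replicate numbers did not pair the libraries, with correlations of deviations between −0.21 and 0.12 over 6 pairs of groups. With the replicate block, members called were 6, 0, 3, 6 and 1 in the 5 comparisons in the order of the text, and 3 pathway genes lost a call in limma: the Ctss difference (adjusted p = 0.0599), Jak2 between the models under PBS (0.0535) and Creb1 after cGAMP (0.0624). Calls over all genes moved by over 1.5 times in 30 of 90 fits, between 462 and 2874 for the response in spontaneous tumours, 1270 and 3652 in implanted tumours, 0 and 164 for the difference, 217 and 1342 under PBS and 179 and 2097 after cGAMP. Over the other pathway genes, 82 refits lost a call and 310 did not.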
